A study of Bos taurus with 9 samples.

Results

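YAP1 and TAZ are transcriptional coactivators that enter the nucleus and switch on genes together with TEAD factors. The genes described here were these coactivators (YAP1 and WWTR1, the gene of TAZ), the DNA-binding partner TEAD1, the kinase LATS2 and 6 genes known as their targets or binding proteins (CCN1, CCN2, ANKRD1, AXL, AMOTL2 and AJUBA). They were chosen by name as parts and targets of this pathway, with earlier results of these data known, and all 10 were among the 20679 genes measured by RNA-seq. Fragments of bovine uterine gland, the secretory epithelium of the endometrium, were isolated with collagenase, embedded in Matrigel (a basement membrane gel) and collected on day 5 of culture. Without epidermal growth factor (EGF) the fragments formed spherical cysts (CYST), and with EGF they formed tubular uterine gland-like (UG-LIKE) structures in Matrigel alone (MAT) or in Matrigel with type I collagen (MAT + COL). Each of these 3 groups had 3 libraries, numbered 1 to 3 in the sample labels, and all groups shared a serum-free DMEM/F12 medium with bovine serum albumin, ascorbic acid, transferrin, sodium selenite and insulin. The CYST group had neither EGF nor collagen I, and no group had collagen I without EGF. Each culture held many gland fragments, and the sample labels do not name the animals, so the p-values measure the spread between these libraries.

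In the Hippo pathway, the kinases MST1 and MST2 (STK4 and STK3) with their scaffold SAV1 activate LATS1 and LATS2 with MOB1A, and LATS kinases phosphorylate YAP1 and TAZ, which are then held in the cytoplasm or degraded. Cell stretching, a stiff matrix and actin tension keep the coactivators in the nucleus, whereas crowding and mature cell junctions hold them out of it. The control is therefore largely on the proteins, which RNA-seq does not measure, and the RNA of target genes such as CCN1, CCN2 and ANKRD1 is commonly used as the readout. In epithelium, this pathway is known for its roles in growth, lumen size and tissue repair.

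Between 6568968 and 17948600 reads were counted on genes per library. Epithelial markers were high in every library (TPM, the deposited level, is corrected for gene length and library size). Their 7 genes summed to 16671 to 18481 TPM in CYST, 27636 to 43347 TPM in MAT and 28229 to 38551 TPM in MAT + COL, although the gland factor FOXA2 was only at 1.31 to 12.4 TPM. Markers of stromal fibroblasts were also present: their 8 genes summed to 2021 to 4566 TPM in CYST, 755 to 3002 TPM in MAT and 1905 to 3506 TPM in MAT + COL, with none at 0 in any library. The 5 markers of smooth muscle and pericytes summed to 67.2 to 107 TPM in CYST, 27.2 to 53.3 TPM in MAT and 36.4 to 57.6 TPM in MAT + COL, also with none at 0. Libraries with the same replicate number in the labels deviated together from their group means, although the column names of the files carry another number for 6 of the 9 libraries. Each comparison was therefore also fitted with the replicate number as a block, so that libraries were compared within their number. The second fit is reported wherever it changed a call, and most values for MAT + COL against MAT come from it although it changed no call there. A call was an adjusted p under 0.05 in edgeR's quasi-likelihood test over all genes tested.

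Positions below are those of the files, on assembly ARS-UCD2.0. The 10 genes covered a wide range of levels. CCN1, a secreted matricellular protein of the CCN family, was at 58.7 to 609 TPM, with a median of 262 TPM over the 9 libraries. ANKRD1, an ankyrin repeat protein of the sarcomere and nucleus, and CCN2, the connective tissue growth factor, had medians of 56.2 and 45.7 TPM. The medians of AJUBA and WWTR1 were 33.9 and 25.2 TPM, and those of AMOTL2, YAP1, AXL and TEAD1 lay between 4.39 and 9.64 TPM. LATS2 was near the limit of detection, with a highest level of 0.604 TPM. The ratio of the highest to the lowest library was 39.1 for ANKRD1, 16.6 for LATS2 on 1 to 14 counts, 15.4 for CCN2 and 10.4 for CCN1. YAP1 had the smallest ratio of the 10 genes, at 2.21.

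**Figure D1:**
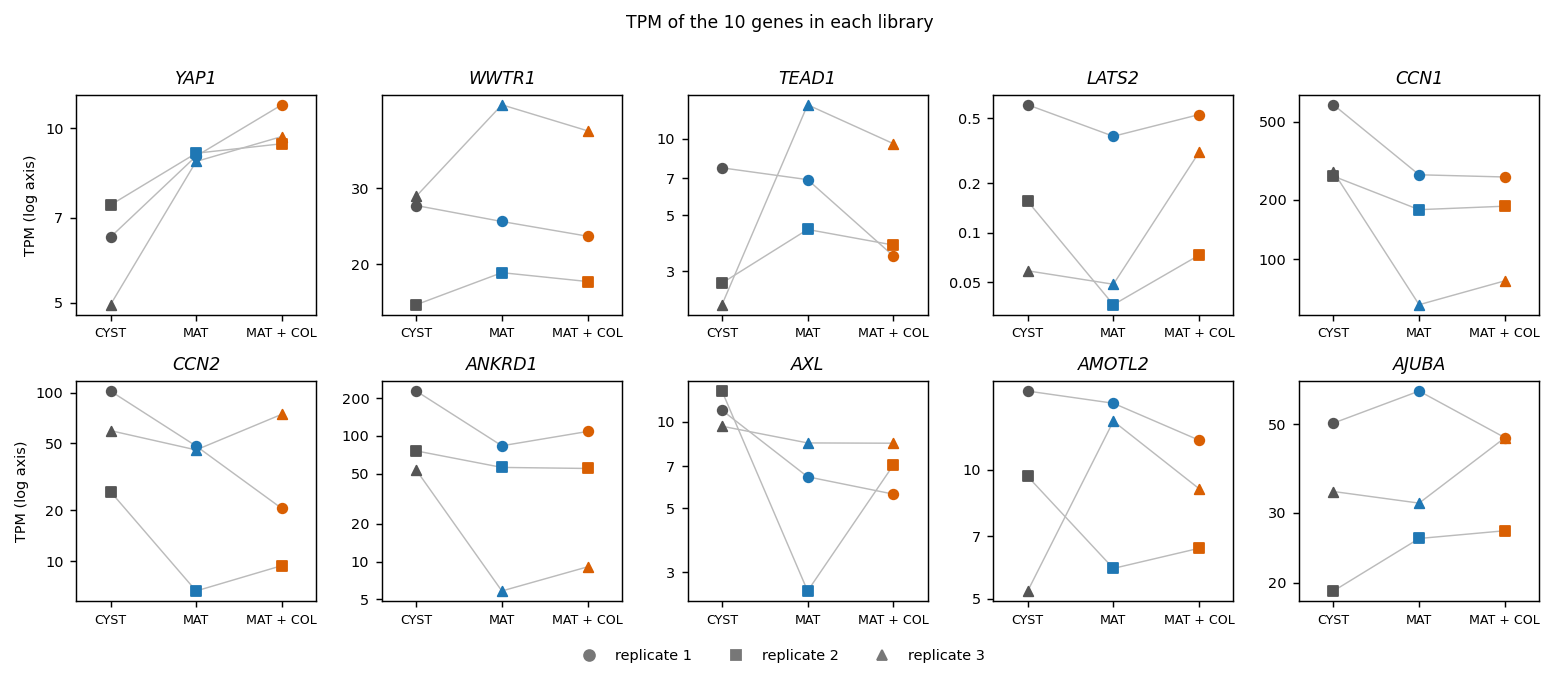
TPM of each of the 10 genes (vertical log axes, a separate scale per gene) in the CYST, MAT and MAT + COL groups, with 1 point per library, symbols for the replicate number and grey lines joining libraries with the same number. YAP1 was higher in each MAT and MAT + COL library than in any CYST library, whereas ANKRD1 was lowest in MAT replicate 3 (5.83 TPM) and CCN2 in MAT replicate 2 (6.64 TPM).

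The comparison of MAT with CYST addressed what EGF did to gland fragments in Matrigel. CCN1 and CCN2 fell in the UG-LIKE structures when same-numbered libraries were compared, and neither was called without the replicate block. YAP1 itself was higher in all 3 MAT libraries than in all 3 CYST libraries, by a small step that was not called in either fit. LATS2 was removed by the count filter, which leaves 9 genes. Of these, 0 were called without the block, where 1.79% of 12074 genes were called, and 2 were called with it, where 10.6% of genes were called and 5.67% were called lower. The study's criteria for differentially expressed genes (DEGs) ask for more than a 2-fold change and a minimal TPM above 1 beside the adjusted p. They were applied here to the edgeR fits, with the minimal TPM taken over all 6 libraries. They were then met by 0 of the 9 without the block (175 genes, 1.45%) and by CCN1 and CCN2 with it (726 genes, 6.01%). These shares belong to the fits used here and not to the study's own test. Without the block, 0 of the 9 had an unadjusted p under 0.05, against 20.7% of all genes, and DESeq2 without the block also called 0 of them, beside 11.3% of genes. Over the 9 genes the median Log2FC was 0.16, beside 0.01 over all genes tested, with 5 positive and 4 negative values.

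YAP1 was at 6.49, 7.37 and 4.96 TPM in CYST replicates 1, 2 and 3 and at 8.95, 9.05 and 8.76 TPM in MAT. The MAT libraries lay very close together and above every CYST library, a pattern of separate groups that 11.9% of all genes showed in the same direction. The means were 6.27 ± 1.22 (SD, n = 3) and 8.92 ± 0.148 (SD, n = 3) TPM. The Log2FC was 0.51 (SE 0.28), with an adjusted p of 0.354. YAP1 (chr15:6501783-6634647, minus strand) rested on few reads, with 67 to 231 counts per library. Across all 9 libraries, 94.5% of the sum of squares of its log2 CPM (counts scaled to library size) lay between the 3 groups, a share as large as in 0.560% of genes, and 0.129% lay between replicate numbers.

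WWTR1, the gene of TAZ, was at 27.4, 16.1 and 28.8 TPM in CYST and at 25.2, 19.1 and 46.9 TPM in MAT. The groups overlapped, and replicate 2 was the lowest library in both. Its Log2FC was 0.30 (SE 0.41), with an adjusted p of 0.733. In contrast to YAP1, 5.07% of the sum of squares of WWTR1 lay between groups and 89.1% between replicate numbers, a share that 1.63% of genes reached. WWTR1 (chr1:118469195-118645508, plus strand) was the higher of the coactivator transcripts in each library, at 1.94 to 5.81 times the TPM of YAP1, and the ratio was lowest in replicate 2 of every group.

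TEAD1, a factor that carries YAP1 and TAZ on DNA, was at 7.68, 2.70 and 2.22 TPM in CYST and at 6.90, 4.39 and 13.6 TPM in MAT. The groups overlapped, and MAT replicate 3 stood above all other libraries of the comparison. TEAD1 lies at chr15:39747792-40015530 on the minus strand. The Log2FC was 1.03 (SE 0.59), with an adjusted p of 0.372, and without MAT replicate 3 it was 0.42. LATS2, which is both a kinase that restrains YAP1 and a target gene induced by it, had 8, 4 and 1 counts in CYST, 4, 1 and 1 in MAT and 14, 2 and 8 in MAT + COL. It did not pass the filter in any comparison, and a difference was not detectable at this depth. The gene model of LATS2 in the files (chr12:35661947-35684843, plus strand) spanned 44.8% of the RefSeq gene on the same assembly, whereas the models of the other 9 genes spanned 97.5% to 118.3%.

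CCN1 was at 609, 264 and 278 TPM in CYST and at 269, 178 and 58.7 TPM in MAT. Each MAT library was below the CYST library of the same number, by 2.27, 1.48 and 4.73 times, yet the groups overlapped because MAT replicate 1 was about as high as CYST replicates 2 and 3. Without the block the Log2FC was -1.20 (SE 0.53) and the adjusted p was 0.245. With the block it was -1.33 (SE 0.34, 95% interval -2.13 to -0.53), with an adjusted p of 0.0486, which is 2.51 times lower. The gene lies on the minus strand at chr3:58488395-58491302.

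CCN2 was at 102, 25.8 and 59.5 TPM in CYST and at 48.2, 6.64 and 45.7 TPM in MAT. It too was lower in each same-numbered pair, by 2.12, 3.89 and 1.30 times, and the groups overlapped. The Log2FC was -0.92 (SE 0.73, adjusted p 0.519) without the block and -1.14 (SE 0.26, 95% interval -1.74 to -0.53, adjusted p 0.0359) with it, or 2.20 times lower. The pair with the smallest step in CCN1 (replicate 2) had the largest in CCN2, and the pair with the largest step in CCN1 (replicate 3) had the smallest in CCN2. The gene lies on the minus strand at chr9:69887204-69890438.

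Both calls rested on the pairing by replicate number and on few libraries. With the block, CCN1 had an adjusted p of 0.213 without the libraries numbered 1 and CCN2 had 0.204, and CCN2 had 0.113 without those numbered 2. The Log2FC with the block was -0.79 for CCN1 without the libraries numbered 3 and -0.81 for CCN2 without those numbered 2, both short of the study's 2-fold criterion. Without the block, the Log2FC of CCN2 was -0.43 without either MAT replicate 2 or CYST replicate 1, and that of CCN1 was -0.75 without CYST replicate 1 and -0.80 without MAT replicate 3. Under RLE size factors with the block, CCN1 had an adjusted p of 0.0516, and in the fit of all 9 libraries with the block CCN2 had 0.0988.

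ANKRD1 (chr26:12533108-12542479, minus strand) was at 228, 76.0 and 53.5 TPM in CYST and at 83.5, 56.2 and 5.83 TPM in MAT. It was lower in every same-numbered pair, by 2.73, 1.35 and 9.19 times, and the groups overlapped. The Log2FC was -1.30 (SE 0.83, adjusted p 0.426) without the block and -1.61 (SE 0.50, adjusted p 0.0805) with it, neither of which was called, and -0.46 without CYST replicate 1 in the fit without the block. With the block and without the libraries numbered 2 it was called (Log2FC -2.32, adjusted p 0.00667), as were 5.11% of genes. Without those numbered 1 it was not called with the block, and without those numbered 3 its Log2FC was -0.86. Over these blocked fits its adjusted p reached 0.284.

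AXL (chr18:50402760-50437815, plus strand), a receptor tyrosine kinase for GAS6, was at 11.0, 12.8 and 9.65 TPM in CYST and at 6.44, 2.58 and 8.44 TPM in MAT. All MAT libraries were below all CYST libraries, as in 11.8% of genes, and the Log2FC was -0.93 (SE 0.43, adjusted p 0.264) without the block and -1.09 (SE 0.38, adjusted p 0.111) with it. Without MAT replicate 2 the Log2FC was -0.57, and without the libraries numbered 3 AXL was called with the block (Log2FC -1.47, adjusted p 0.0398), as were 15.3% of genes. With the block and without those numbered 2 its Log2FC was -0.55, and without those numbered 1 it was not called. Over these blocked fits its adjusted p reached 0.481. Its span overlaps an uncharacterised non-coding RNA gene in RefSeq, and the strand setting of the counting is not given in the sources used here. Together, CCN1, CCN2, ANKRD1 and AXL were the 4 genes lower in MAT in all 3 pairs, out of 9, beside 24.7% of all genes, and YAP1 was the 1 gene higher in all 3 pairs, beside 25.1% of all genes. With the block, these 4 had an unadjusted p under 0.05 in the lower direction, as did 14.5% of genes.

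AMOTL2 and AJUBA, which bind YAP1 regulators at cell junctions, showed no such pattern. AMOTL2 (chr1:134948051-134965588, plus strand), an angiomotin family protein, was at 15.3, 9.64 and 5.21 TPM in CYST and at 14.3, 5.88 and 13.0 TPM in MAT, so that it was lower in the pairs numbered 1 and 2 and higher in the pair numbered 3. AJUBA (chr10:21862266-21872022, plus strand), a LIM domain protein that inhibits LATS kinases, was at 50.4, 19.1 and 33.9 TPM in CYST and at 60.6, 25.9 and 31.7 TPM in MAT. Their Log2FC values were 0.17 (SE 0.44, adjusted p 0.871) and 0.16 (SE 0.43, adjusted p 0.874). With the block, the 95% intervals ran from -0.68 to 0.97 for AMOTL2 and from -0.29 to 0.68 for AJUBA, which leaves room for a change of either sign.

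Epithelial markers had mostly positive values in MAT against CYST, 6 of 7 with a median Log2FC of 0.70. With the block 3 were called higher, beside 4.90% of all genes called higher. All 8 fibroblast markers had a negative Log2FC in MAT against CYST, with a median of -0.68. With the block 1 of them was called lower, beside 5.67% of all genes called lower. Of the 5 smooth muscle and pericyte markers, 4 had a negative Log2FC, with a median of -0.84. The medians of the immune, ciliated and endothelial lists were -1.10, -0.22 and 0.02, with 0 called in either fit. MAT replicate 2, with the lowest summed fibroblast level of 755 TPM, also had the lowest CCN2 and AXL of all 9 libraries, whereas CCN1 and ANKRD1 were lowest in MAT replicate 3, where the summed fibroblast level was 3002 TPM. The part of these markers in the results was not tested. In bulk RNA, fewer cells of a type and less RNA per cell cannot be told apart.

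**Figure D2:**
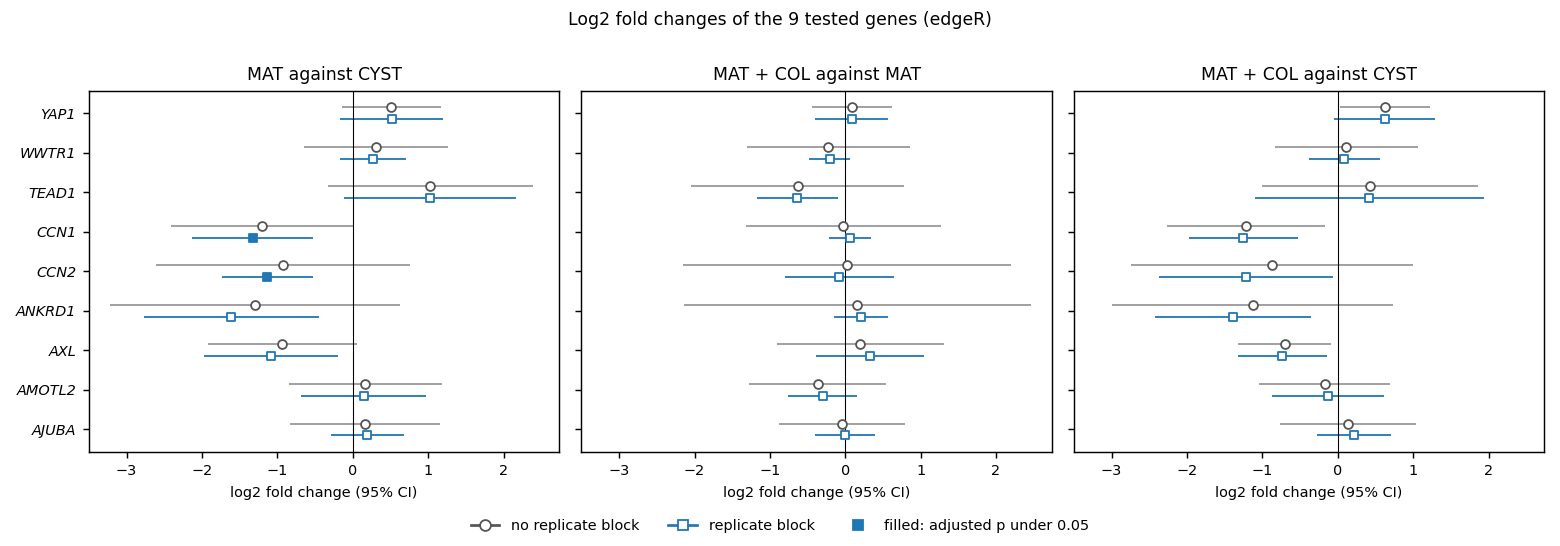
Log2FC with 95% intervals (horizontal axes) of the 9 genes tested, in the 3 comparisons, without the replicate block (circles) and with it (squares), where filled symbols mark an adjusted p under 0.05 in edgeR. CCN1 and CCN2 in MAT against CYST with the block, at -1.33 and -1.14, were the only filled symbols.

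The comparison of MAT + COL with MAT addressed what collagen I in the gel did when EGF was present in both groups. None of the 9 genes was called in either fit, and 0 of 12470 genes were called (0%), so the target genes shared the lack of calls of the whole table. With the block, 4.96% of all genes had an unadjusted p under 0.05, and TEAD1 was the 1 member among them. Without the block, 51 of all genes had an unadjusted p under 0.05 (0.409%) and 0 of these 9 did. With DESeq2 and the block 1 gene of the whole table was called and 0 of the 9.

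CCN1 was at 262, 186 and 77.5 TPM in MAT + COL, or 0.974, 1.04 and 1.32 times the same-numbered MAT libraries, and its Log2FC with the block was 0.06 (95% interval -0.22 to 0.34). ANKRD1 was at 109, 55.1 and 9.06 TPM, or 1.30, 0.981 and 1.56 times MAT, and its Log2FC with the block was 0.21 (95% interval -0.15 to 0.57). These intervals with the block do not reach a fold change of 2 (Log2FC of 1) in either direction. Without the block they pass it in both directions, at -1.32 to 1.27 for CCN1 and -2.14 to 2.46 for ANKRD1.

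CCN2 was at 20.5, 9.39 and 74.4 TPM, or 0.426, 1.41 and 1.63 times MAT. Its Log2FC with the block was -0.08 (95% interval -0.80 to 0.64), and without the block the interval was wider, at -2.15 to 2.19. AXL was at 5.61, 7.06 and 8.43 TPM, and only the pair numbered 2 differed by much, at 2.73 times the MAT level. Its Log2FC with the block was 0.33 (95% interval -0.38 to 1.04).

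YAP1 was at 11.0, 9.40 and 9.67 TPM in MAT + COL, above every MAT library in TPM and higher in all 3 pairs. In CPM the groups overlapped, since MAT + COL replicate 2 was at 11.5 and MAT replicate 3 at 11.9. Separation in TPM in the higher direction occurred in 2.75% of genes and a higher TPM in all 3 pairs in 20.4%. With the block the Log2FC of YAP1 was 0.09 (SE 0.22, 95% interval -0.40 to 0.57). WWTR1 was at 23.3, 18.3 and 40.8 TPM and TEAD1 at 3.45, 3.81 and 9.58 TPM, and both were lower than MAT in all 3 pairs, as were 7.95% of genes. Their Log2FC values with the block were -0.20 (95% interval -0.48 to 0.07) for WWTR1 and -0.64 (SE 0.24, 95% interval -1.18 to -0.09) for TEAD1, the latter with an unadjusted p of 0.0254 and an adjusted p of 0.955. Without the block the Log2FC of TEAD1 was -0.63, and it was -0.02 without MAT replicate 3 and -1.32 without MAT + COL replicate 3.

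AMOTL2 was at 11.7, 6.55 and 9.03 TPM and AJUBA at 46.3, 27.0 and 46.3 TPM in MAT + COL. Their Log2FC values with the block were -0.30 (95% interval -0.76 to 0.16) and -0.00 (95% interval -0.40 to 0.39). The groups overlapped for both genes. All 8 fibroblast markers had positive values in this comparison (median Log2FC 0.34) and 6 of 7 epithelial markers had negative ones (median -0.13), with none called, and their part in these values was not tested.

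MAT + COL was also set against CYST, which shares its CYST libraries with the first comparison and its MAT + COL libraries with the second and is therefore not separate evidence. None of the 9 genes was called, without the block (1.49% of 12509 genes called) or with it (5.26% called), although DESeq2 called CCN1 (adjusted p 0.0486 without the block), as it did 12.3% of genes. Without the block, YAP1, CCN1 and AXL had an unadjusted p under 0.05, 3 of 9 beside 21.7% of genes. CCN1 was lower in all MAT + COL libraries than in all CYST libraries, as was AXL, and 10.3% of genes were. For CCN1 the margin was narrow, with 262 TPM in the highest MAT + COL library and 264 TPM in the lowest CYST library. YAP1 was higher without overlap, as were 14.3% of genes, and higher in all 3 pairs, as were 29.6%.

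The Log2FC of CCN1 was -1.22 (SE 0.45, adjusted p 0.176) without the block and -1.25 (SE 0.30, adjusted p 0.0641) with it. With the block, 4 genes had an unadjusted p under 0.05 in the lower direction (CCN1, CCN2, ANKRD1 and AXL), beside 13.1% of genes. AXL had -0.71 (SE 0.26, adjusted p 0.180) and YAP1 had 0.62 (SE 0.26, adjusted p 0.218), both without the block. ANKRD1 was lower in all 3 pairs, by 2.10, 1.38 and 5.91 times, as were CCN1, AXL and 19.9% of genes, with a Log2FC of -1.39 (SE 0.43, adjusted p 0.106) with the block. CCN2 was lower in the pairs numbered 1 and 2 but 1.25 times higher in the pair numbered 3, with a Log2FC of -1.22 (SE 0.48, adjusted p 0.169) with the block. Without the libraries numbered 3, the blocked fit called all 4 lower, with Log2FC values of -0.87 for CCN1, -1.91 for CCN2, -0.78 for ANKRD1 and -0.92 for AXL and adjusted p values of 0.00495 to 0.0441, in a fit that called 19.1% of all genes. Without those numbered 2 it called CCN1 (adjusted p 0.0459) and 0.878% of all genes. Without those numbered 1 it called 0 of these genes, and the Log2FC was -0.61 for CCN2 and -0.59 for AXL. Over these 3 blocked fits, the adjusted p reached 0.179 for CCN1, 0.464 for CCN2, 0.211 for ANKRD1 and 0.434 for AXL.

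The 10 genes differed in what their levels followed. YAP1 had almost all of its variation between groups, whereas WWTR1, AJUBA and LATS2 had most of theirs between replicate numbers, at 89.1%, 80.5% and 72.7% of the sum of squares. The share of LATS2 rests on only 1 to 14 counts per library, too few to show what its level followed. The share of YAP1 rests on 67 to 231 counts per library and on a small spread. Its SD of log2 CPM was 0.306, beside a median of 0.460 over all genes, and YAP1 was not called in either edgeR fit of any comparison. CCN2 (68.0%), ANKRD1 (64.7%) and AMOTL2 (53.2%) also had the larger share between replicate numbers. CCN1 was split evenly, with 42.6% between groups and 43.1% between replicate numbers, and TEAD1 had 27.2% in each, leaving 45.7% in neither. AXL had 45.7% between groups and 20.1% between replicate numbers. Over all genes the medians were 29.9% between groups and 32.0% between replicate numbers.

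**Figure D3:**
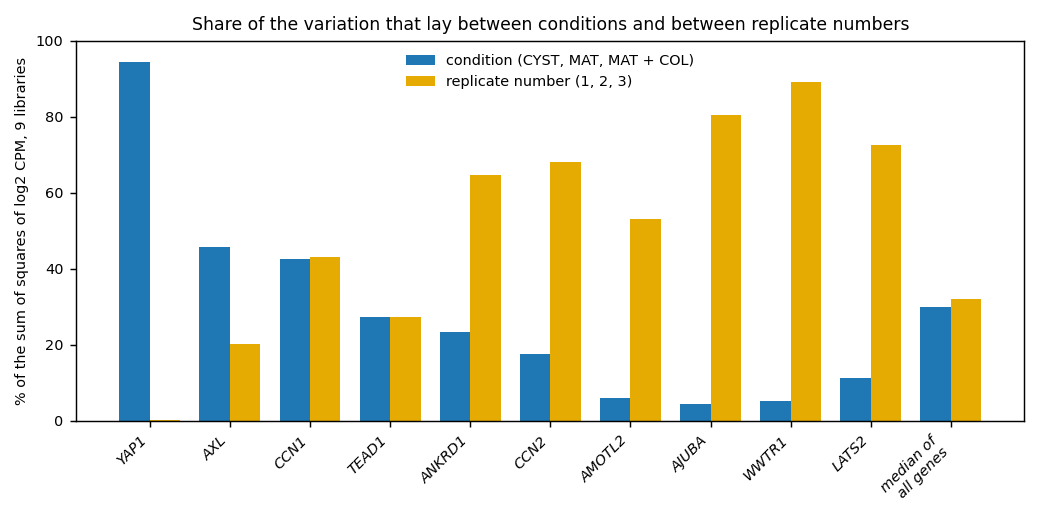
Percentage of the sum of squares of log2 CPM over 9 libraries (vertical axis) that lay between the 3 conditions (blue) and between the 3 replicate numbers (yellow), for each of the 10 genes and as the median of all genes. YAP1 had 94.5% between conditions and WWTR1 had 89.1% between replicate numbers.

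CCN2 stood apart from CCN1 and ANKRD1 across libraries. The ratio of CCN1 to CCN2 in TPM ran from 1.04 in MAT + COL replicate 3 and 1.28 in MAT replicate 3 to 26.9 in MAT replicate 2. The ratio of CCN1 to ANKRD1 was steadier, at 2.41 to 5.19 in 7 libraries and at 10.1 and 8.56 in MAT and MAT + COL replicate 3. After each gene was centred on its mean over the 9 libraries, CCN1 and ANKRD1 differed by 0.59 on average (mean absolute difference in log2 CPM), which placed CCN1 at rank 4 of 10531 genes by likeness to ANKRD1 and ANKRD1 at rank 828 by likeness to CCN1, whereas CCN2 and CCN1 differed by 1.22 and CCN2 and ANKRD1 by 1.75.

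By the same measure, the 3 genes most like CCN1 over the 9 libraries were DIPK1A (0.22), TPM1 (0.26), a tropomyosin of actin filaments, and GRAMD2A (0.27). Those most like ANKRD1 were MYL9 (0.47), a light chain of non-muscle and smooth muscle myosin, the receptor FGFR2 (0.54) and DIPK1A (0.54). Those most like CCN2 were RANBP1 (0.26), SPATA2 (0.31) and LEF1 (0.32), a DNA-binding factor of the WNT pathway. The same 9 libraries, with their shared replicate numbers and conditions, underlie all of these values.

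**Figure D4:**
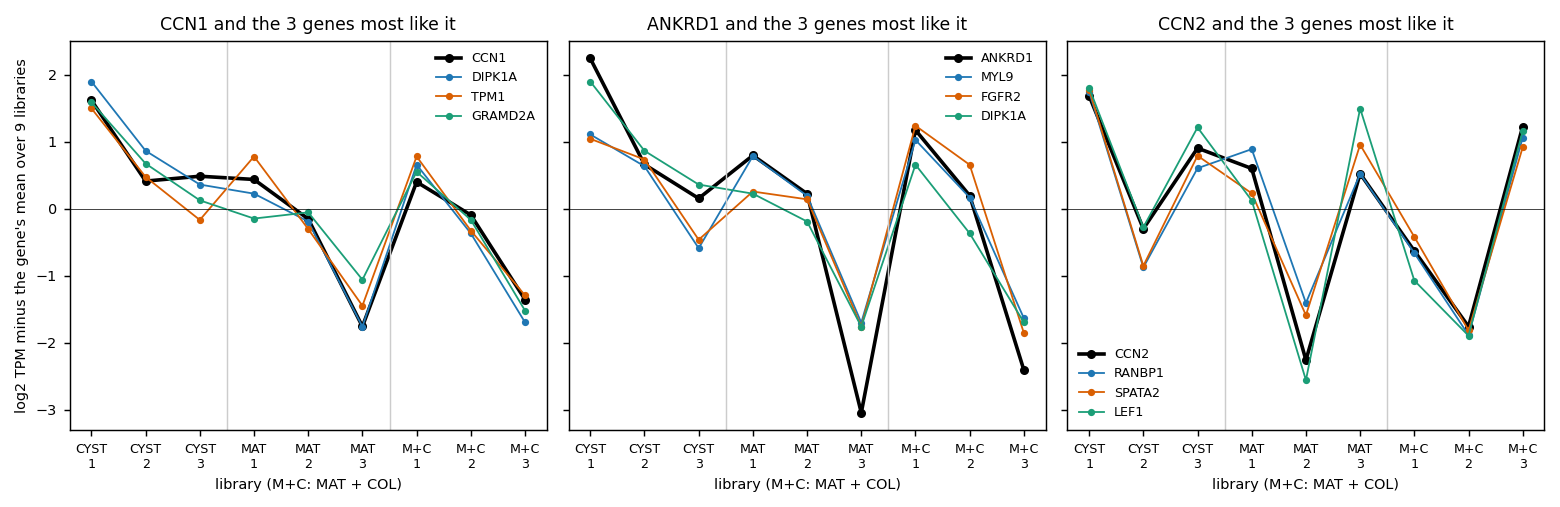
Log2 TPM minus the gene's mean over 9 libraries (vertical axes) of CCN1, ANKRD1 and CCN2 (black) and of the 3 genes most like each (colours), by library. CCN1 and ANKRD1 were lowest in replicate 3 of MAT and MAT + COL, and CCN2 was lowest in replicate 2 of these groups.

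The wider pathway was followed in lists of genes. In the Hippo core kinase list, 14 of 15 genes were tested in MAT against CYST, with 11 positive and 3 negative values and a median Log2FC of 0.35. Of these, 0 were called without the block and 1 was called higher with it (TAOK3), beside 4.90% of all genes called higher. TAOK3, a kinase upstream of MST1 and MST2, was at 3.53, 2.97 and 4.79 TPM in CYST and 8.68 to 11.9 TPM in MAT (Log2FC 1.39, adjusted p 0.0369, with the block). LATS1, at 5.89 to 11.5 TPM in CYST and 10.8 to 18.2 TPM in MAT, was far above LATS2 in every library and had a Log2FC of 0.63 (SE 0.29, adjusted p 0.272). STK3, STK4, SAV1, MOB1A and NF2, the gene of merlin, had Log2FC values of 0.14, 0.06, 0.41, 0.34 and -0.04 without the block, none of them called.

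Of the 8 TEAD and VGLL genes, 7 were in the files and 4 were tested in this comparison, with 0 called in either fit. TEAD2 was the highest TEAD transcript in each library, at 22.1 to 38.0 TPM in CYST and 31.7 to 38.6 TPM in MAT, above TEAD1. TEAD4 was at 6.04 to 11.6 TPM in CYST and 5.64 to 10.2 TPM in MAT, and TEAD3 at 4.03 to 6.75 and 3.39 to 6.88 TPM. The Log2FC values were 0.29 (TEAD2), -0.05 (TEAD3) and -0.40 (TEAD4).

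The list of junction and polarity regulators, which holds AMOTL2 and AJUBA, had 19 of 19 genes tested, with 13 positive values, a median Log2FC of 0.22 and 0 called in either fit. AMOT, at 5.34 to 8.55 TPM in CYST and 8.77 to 12.6 TPM in MAT, had a Log2FC of 0.60 (SE 0.27, adjusted p 0.252), and PTPN14, a phosphatase that binds YAP1 and is also counted as a target, had -0.18. In MAT + COL against CYST, 1 of the 19 was called higher with the block, beside 5.26% of all genes called in either direction. This was TJP1, the gene of ZO-1 (Log2FC 0.73, adjusted p 0.0456).

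In a signature of 22 target genes, which includes CCN1, CCN2, ANKRD1, AXL, AMOTL2 and LATS2, 18 were tested in MAT against CYST, with 8 positive and 10 negative values and a median Log2FC of -0.18. None was called without the block, and with it 3 were lower and 3 were higher, 6 of 18 beside 10.6% of all genes called (5.67% lower and 4.90% higher). The lower ones were CCN1, CCN2 and CRIM1, a transmembrane protein that binds BMPs, at 97.5, 81.9 and 56.9 TPM in CYST and 41.6, 49.1 and 26.5 TPM in MAT (Log2FC -1.04, adjusted p 0.0192). The higher ones were IGFBP3, an IGF-binding protein (Log2FC 4.43, adjusted p 0.000327), NT5E, the ecto-nucleotidase CD73 (Log2FC 1.55, adjusted p 0.0388), and MYOF, a membrane repair protein (Log2FC 0.72, adjusted p 0.0436). IGFBP3 was at 6.20, 4.08 and 39.7 TPM in CYST, at 91.6, 89.5 and 1197 TPM in MAT and at 30.3, 98.4 and 2170 TPM in MAT + COL. IGFBP3 was also the 1 signature gene called with the block in MAT + COL against CYST (Log2FC 4.28, adjusted p 0.0315), beside 5.26% of all genes called.

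**Figure D5:**
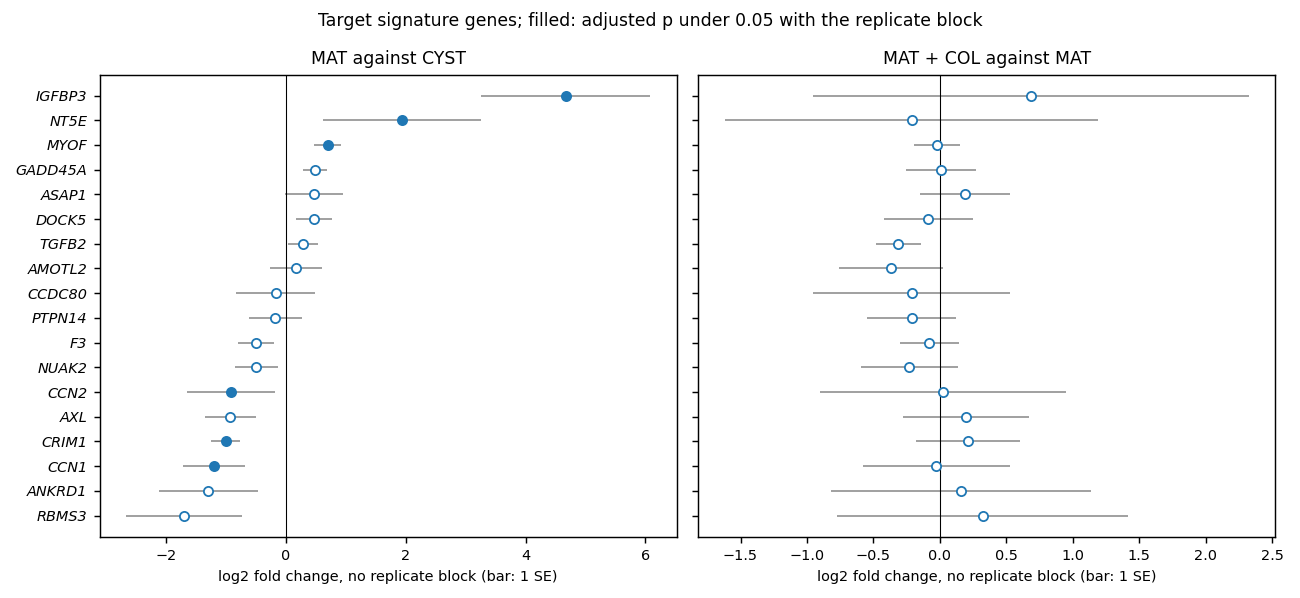
Log2FC without the replicate block (horizontal axes with different scales, bars of 1 SE) of the 18 target signature genes tested in MAT against CYST (left) and the same genes in MAT + COL against MAT (right), ordered by the left values. Filled symbols mark an adjusted p under 0.05 with the block, which 3 genes on each side of 0 reached on the left and none on the right.

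Actin genes controlled by SRF and its cofactors MRTF, of which CCN1 is also a known target, had 17 of 18 genes tested and 0 called without the block. With it, 3 were called lower, TAGLN (Log2FC -1.57, adjusted p 0.00719), TPM2 (-1.46, adjusted p 0.0187) and TPM1 (-0.93, adjusted p 0.0321), and 0 higher, beside 5.67% of all genes called lower. With the block, MAT + COL against CYST had ACTG2 (-1.15, adjusted p 0.0312) and TPM1 (-0.95, adjusted p 0.0398) called lower. There 5.26% of all genes were called in either direction. TAGLN and TPM2 are also abundant in smooth muscle. The smooth muscle and pericyte markers given above share ACTG2 and CNN1 with these actin genes, so the lists are not separate. Of those 5 markers, 4 had a negative Log2FC in MAT against CYST. MYH11 was at 8.50, 9.94 and 4.78 TPM in CYST and 6.99, 10.4 and 6.56 TPM in MAT. The part of smooth muscle cells was not tested. All 10 proliferation genes had negative values in MAT against CYST, with a median Log2FC of -1.37. Without the block 3 were called lower (MCM5, MCM2 and PCNA), beside 1.79% of all genes called in either direction. With the block 7 were called lower, beside 5.67% of all genes called lower. The 6 of these with the smallest p were MCM5, MCM2, PCNA, CCNB1, AURKA and CCNA2, with Log2FC values of -1.89 to -1.20 with the block. MCM5 and PCNA were also called lower in MAT + COL against CYST, in both fits. Of all genes, 1.49% were called there in either direction without the block and 5.26% with it. None of the genes in any of these lists was called in either fit of MAT + COL against MAT.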

How the data were processed

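RNA-seq libraries were prepared by the authors from total RNA with a SMART-Seq kit, which reads whole transcripts after PCR and carries no molecular identifiers. Trimmed reads were mapped by the authors to ARS-UCD2.0 under the default settings of CLC Genomics Workbench, and the deposited counts are reads per gene and library, not normalized, for 20679 genes. The authors also deposited TPM, which is corrected for gene length and library size. The annotation release and the strand setting are not given in the sources used here. All 9 per-sample columns of each table were used.

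Counts were tested in R 4.3.3 with edgeR 4.0.16 (filterByExpr with a minimum count of 10, TMM, quasi-likelihood test, two-sided, Benjamini-Hochberg over all genes tested), using the 6 libraries of each comparison. Total counts of 6568968 to 17948600 limit precision for genes of few reads. Replicate numbers come from the labels (the column names of the tables carry another number for 6 of 9 libraries), and the study describes MAT and MAT + COL libraries as grouping by individual. Over 12858 genes, the differences between each library and its group mean correlated at 0.293 to 0.673 where libraries shared a number, and where they did not at -0.505 to 0.0992. Such differences cancel out within a group, so these ranges are not independent of each other. The numbers were taken to pair the samples because the values at shared numbers were all positive. The blocked fit is given where it changed a call and for most values of MAT + COL against MAT. Alternatives were DESeq2 1.42.0, RLE size factors, no filter, all 9 libraries in one fit, limma 3.58.1 on log2(TPM + 1) and log2(TPM + 0.1), downsampling to the shallowest library, and leaving out each library. Combinations of other choices with the block were added after seeing the data. The scripts were tested on simulated counts.

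Log2 CPM used a prior count of 2. Likeness was ranked among genes with at least 10 counts in all 9 libraries. The genes and lists were chosen with earlier results of these data known. From each list but 1, whose result is not reported here, genes called in either fit are named (up to 6 by p), with TEAD, LATS1, MST, SAV1, MOB1A, NF2, AMOT and PTPN14 genes whatever their values. No sequences were searched, since no table of promoters was used here. Python 3.11.15 and matplotlib 3.10.9 made the figures.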

Additional observations from a re-analysis of the deposited data

How the results depend on the processing

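In MAT against CYST, the edgeR fit without a block called 0 members, 216 genes and 3 list genes. The replicate block gave 2, 1277 and 18, DESeq2 gave 0, 1278 and 12, and all 9 libraries in the fit gave 580 genes. With the block, DESeq2 gave 3 (CCN1, CCN2 and AXL), 1979 and 28, RLE size factors 1 (CCN2), 1265 and 17, all 9 libraries 2 (CCN1 and ANKRD1), 2118 and 24, and limma on log2(TPM + 1) 2 (CCN1 and CCN2), 1260 and 17. Limma on log2(TPM + 0.1) gave 1 list gene. In MAT + COL against CYST, the counts without a block were 0, 186 and 2. The replicate block gave 658 genes and 6 list genes, DESeq2 1 (CCN1), 1500 and 10, all 9 libraries 601 genes, and limma on log2(TPM + 0.1) 1 list gene. With the block, DESeq2 gave 3 (CCN1, CCN2 and ANKRD1), 1912 and 25, RLE size factors 692 and 6, all 9 libraries 1 (CCN1), 2035 and 22, and limma 1 (CCN1), 760 and 7. In MAT + COL against MAT, 0 members, genes and list genes were called, except that DESeq2 and limma, each with the block, called 1 gene. In edgeR on the 6 libraries of a comparison, the replicate block changed no other call of a member than those of CCN1 and CCN2 in MAT against CYST. The causes of these differences were not tested.

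With a library left out of the fit without the block, or a replicate number left out of the blocked fit, 0 to 3 members, 5 to 1867 genes and 0 to 24 list genes were called in MAT against CYST, 0 to 46 genes and 0 to 2 list genes in MAT + COL against MAT, and 0 to 4 members, 3 to 2406 genes and 0 to 29 list genes in MAT + COL against CYST. The upper ends came from the blocked fit without the libraries numbered 3.

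In MAT + COL against MAT, the Log2FC of CCN1 was -0.03 without the block and 0.060 with it, 0.14 with limma (both pseudocounts, and with the block), 0.058 with DESeq2 or RLE size factors and the block, and 0.039 with all 9 libraries and the block. That of CCN2 was 0.02 and turned to -0.081 with the block, -0.019 and -0.011 with limma, -0.019 with limma and the block, -0.070 with DESeq2 and the block and -0.083 with RLE size factors and the block, and that of AJUBA was -0.04 and turned to 0.071 with limma on log2(TPM + 1), with and without the block, and to 0.073 on log2(TPM + 0.1). Over the fits with libraries left out, the Log2FC in MAT against CYST ran from -0.19 to 0.58 for WWTR1, -0.32 to 0.60 for AMOTL2 and -0.21 to 0.49 for AJUBA. In MAT + COL against MAT it ran from -0.68 to 0.28 for WWTR1, -0.43 to 0.45 for CCN1, -1.30 to 0.57 for CCN2, -0.60 to 0.78 for ANKRD1, -0.18 to 0.65 for AXL and -0.28 to 0.36 for AJUBA. In MAT + COL against CYST it ran from -0.36 to 0.39 for WWTR1, -0.35 to 1.23 for TEAD1, -0.48 to 0.22 for AMOTL2 and -0.18 to 0.44 for AJUBA.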
